A study of Homo sapiens with 6 samples.

Results

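The intestinal identity transcription factors are CDX1, CDX2, HNF4A, GATA6, KLF4, KLF5 and SOX9, nuclear proteins that switch on the genes of gut and colon epithelium. They were followed by Ensembl identifier in the RNA sequencing table of SW480 cells, a line from a human colorectal adenocarcinoma, and 5 of the 7 factors were found among its 59192 features. CDX1 (ENSG00000113722) and GATA6 (ENSG00000141448) had no row under these identifiers and were not analysed here. The table holds 6 libraries from 2 cell lines, 3 for each, and each library is an independent experiment. SW480-NC cells carry lentiviral Cas9, selected with puromycin, and a control guide RNA in a lentivirus that also encodes EGFP. SW480-45 cells are labelled as HPSE-knockdown, HPSE being the gene of heparanase. The paper's results name the sequenced knockdown line SW480-KD1, and SW480-45 was taken to be that line, since no label ties the names. SW480-KD1 carries the same Cas9 virus and a guide RNA virus directed at HPSE. The sources used here do not say whether either line is a clone, so a difference between the lines cannot be told apart from one between the populations that grew out after infection. The question was whether these factors, and the genes they are known to control, differed in RNA level between the lines.

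CDX1 and CDX2 are homeodomain proteins that give the embryonic gut its intestinal rather than gastric fate, and CDX2 is lost in a fraction of colorectal tumors. HNF4A is a nuclear receptor and GATA6 a zinc finger protein, and both bind the enhancers of enterocyte genes together with CDX2. KLF4 and KLF5 are Krüppel-like factors that recognize the same CACCC- and GC-rich DNA. KLF4 marks differentiated cells at the crypt top and restrains the cell cycle, and KLF5 is high in dividing cells of the crypt base. SOX9 is an HMG box protein of crypt base and Paneth cells and a target of Wnt signaling.

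The libraries held 33221323 to 39802365 reads, and the 10 most abundant features took 7.85% to 8.75% of them. HPSE was at 136, 172.5 and 146 normalized counts in SW480-45 and at 269.9, 295 and 246 in SW480-NC, so every SW480-45 library lay below every control. Its mean was 56.1% of the control mean, with a log2 fold change of -0.83 ± 0.14 (SE) and an adjusted p of 0.0547 by limma, just outside the threshold of 0.05. It passed under 4 of the 10 other settings, with 0.00207 by DESeq2. These are RNA levels, whereas the paper reports the knockdown of HPSE protein by western blot, and protein was not measured here. Of 9 listed epithelial markers, CDH1, KRT18 and CLDN7 had no row and were not analysed. Epithelial identity was seen in EPCAM, at 16775 to 18783 normalized counts, and in KRT8, at 70496 to 90059, while 5 of the 6 listed epithelial markers with a row could be tested. None of these 5 reached an adjusted p under 0.05 by limma. An unadjusted p under 0.05 was seen for 2 of them, and for 16.2% of all features tested. The 2 were KRT8 at 86.4% of the control and VIL1, the brush border protein villin, at 115%. CDH17, a cadherin of intestinal epithelium and a target of CDX2, was at 0 in 5 of the 6 libraries. Of the listed markers of other cell types with a row, 3 of 6 hepatic, 1 of 5 squamous, 3 of 5 fibroblast and 3 of 6 immune or endothelial genes had a mean under 10 normalized counts. The markers ALB, TP63, COL1A2, HBB and CDH5 were among these, at under 5 in each library. The immune genes PTPRC, CD3E and CD68 and the fibroblast genes COL3A1 and DCN had no row and were not analysed. PECAM1, at 9.03 to 30.6, and VWF, at 0 to 19.0, were low but passed the minimum mean. Others were well above 0 in every library, among them LYZ, the lysozyme gene of myeloid and Paneth cells, at 59444 to 71955, the hepatic marker SERPINA1 at 17013 to 22047, and the collagen gene COL1A1 at 198 to 358.5. In bulk RNA, fewer cells of a kind and less RNA per cell cannot be told apart.

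Promoter sequence was available for 5 of the 7 factors, in 7 windows taken from RefSeq on GRCh38.p14. The windows cover the 250 bases before each annotated start. That of KLF4 is shown because KLF4 had the largest measured fold change of the factors. Both windows of HNF4A are shown because this gene has 2 start regions whose RNAs are added together in its single row. Capitals mark matches, on either strand, to AGATAA for zinc finger factors like GATA6, to GTTAAT for a half-site of HNF1, to CCCNCCC for Krüppel-like factors and to ACAANG for SOX proteins. Each sequence is written 5′ to 3′ along the gene's own strand.
KLF4, minus strand, chr9:107489770-107490019: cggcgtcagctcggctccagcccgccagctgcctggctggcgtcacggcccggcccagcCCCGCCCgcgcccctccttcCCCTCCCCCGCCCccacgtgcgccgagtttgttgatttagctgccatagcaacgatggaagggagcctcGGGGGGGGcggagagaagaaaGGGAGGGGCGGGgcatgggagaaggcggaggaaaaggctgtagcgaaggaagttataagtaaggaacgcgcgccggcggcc
HNF4A upstream start, plus strand, chr20:44355449-44355698: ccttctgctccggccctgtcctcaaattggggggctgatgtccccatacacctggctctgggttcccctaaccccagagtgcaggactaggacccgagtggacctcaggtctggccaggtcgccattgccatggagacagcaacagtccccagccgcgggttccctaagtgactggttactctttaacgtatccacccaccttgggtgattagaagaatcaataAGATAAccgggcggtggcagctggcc
HNF4A downstream start, plus strand, chr20:44400989-44401238: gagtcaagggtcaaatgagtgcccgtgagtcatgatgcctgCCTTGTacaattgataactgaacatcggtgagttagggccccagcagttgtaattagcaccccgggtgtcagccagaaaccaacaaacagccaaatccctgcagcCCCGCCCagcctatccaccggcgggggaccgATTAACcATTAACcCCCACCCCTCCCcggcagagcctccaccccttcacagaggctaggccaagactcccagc
The KLF4 window lies inside the GENCODE 29 span of KLF4 but in no annotated exon. It held 7 matches to CCCNCCC, some of which overlap. At least 1 match to this motif occurred in 51.6% of the 35116 windows of the same length, and the number of matches per window was not compared. The upstream HNF4A window held a single AGATAA, 26 bases before the start, and this motif occurred in 9.17% of all windows. The downstream HNF4A window, intronic for RNAs from the upstream start, held 2 half-sites of HNF1, 73 and 66 bases before the start, 3 matches to CCCNCCC and 1 to ACAANG. A half-site of HNF1 occurred in 6.23% of all windows and ACAANG in 30.9%. The motifs TTTATG (CDX proteins, 9.64% of all windows) and CAAAGTCCA (HNF4, 0.325%) were not found in the windows of these factors. Such matches describe the letters only.

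None of the 5 factors reached an adjusted p under 0.05 in SW480-45 against SW480-NC by limma, and none did by edgeR or DESeq2. Over all 21703 features tested, 0.802% reached it by limma, 0.332% higher and 0.47% lower in SW480-45, and 0.24% with a change of at least 2-fold as well. At an unadjusted p under 0.05, KLF4 and KLF5 were lower by limma and edgeR, and KLF4 alone by DESeq2, while 0 factors were higher. The background at that threshold by limma was 16.2%, of which 8.15% of features were lower and 8.1% higher. The SW480-45 libraries lay wholly below the controls for KLF4 and KLF5, as for 12.0% of features, and groups that did not overlap in either direction made up 23.4%. KLF4 was the only factor lower by at least 2-fold on the log scale of limma, which 2.18% of features were without regard to a test, and it fell short of 2-fold by edgeR (log2 fold change -0.92) and by DESeq2 (-0.93). All 5 factors had a log2 fold change below 0, as had 50.7% of features, and their median was -0.26 against -0.0048 for all features tested. Fold changes are on the scale of log2(normalized count + 1), SW480-45 minus SW480-NC.

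**Figure D1:**
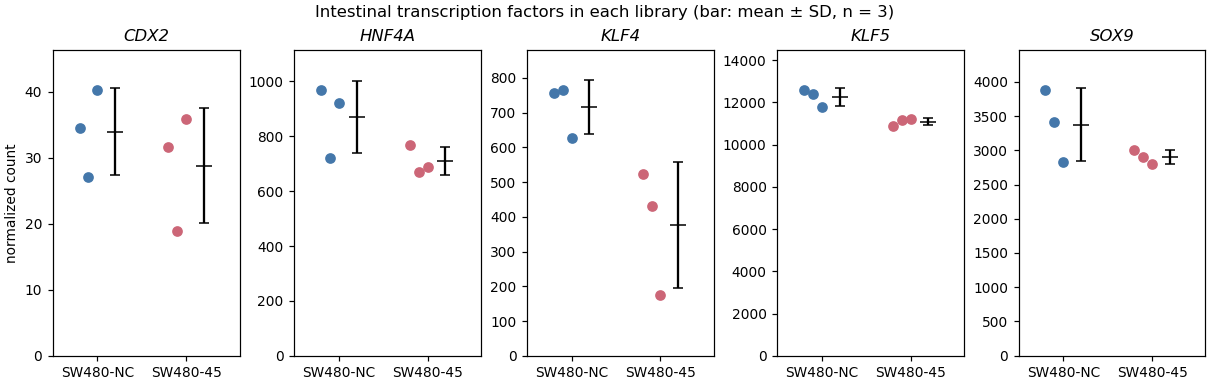
Normalized counts (y axis, linear from 0, a separate scale for each gene) of CDX2, HNF4A, KLF4, KLF5 and SOX9 in the 3 SW480-NC libraries (blue) and the 3 SW480-45 libraries (red), with bars for the mean ± SD. The cell lines overlapped for CDX2, HNF4A and SOX9, and KLF4 spread from 175 to 524 within SW480-45.

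CDX2 (ENSG00000165556) spans chr13:27962137-27971139 on the minus strand. It had 31.6, 19.0 and 35.8 normalized counts in SW480-45 and 34.5, 27.0 and 40.3 in SW480-NC, which came from 21 to 38 reads per library. The cell lines overlapped, and the lowest library of each was replicate 2. Means were 28.8 ± 8.77 and 33.95 ± 6.64 (SD, n = 3). The log2 fold change was -0.26, with a 95% confidence interval from -1.003 to 0.48 and an adjusted p of 0.726 by limma. Without SW480-45 replicate 2 it turned to 0.01, so no direction can be given for CDX2 at this depth.

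HNF4A (ENSG00000101076) spans chr20:44355700-44434596 on the plus strand. Its normalized counts were 769, 671 and 689.6 in SW480-45 and 969.7, 720.5 and 920.4 in SW480-NC. Of the 3 controls, 2 lay above all SW480-45 libraries, and control replicate 2 lay among them. Means were 709.8 ± 51.9 and 870.2 ± 132 (SD, n = 3), and the log2 fold change was -0.28 (95% confidence interval -0.59 to 0.02, adjusted p = 0.337 by limma). Leaving out 1 library at a time gave -0.41 to -0.20.

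KLF4 (ENSG00000136826) spans chr9:107484852-107490482 on the minus strand. It was at 524, 429.9 and 175 normalized counts in SW480-45 and at 757, 766 and 627 in SW480-NC. Every SW480-45 library lay below every control, with replicate 3 far below the others. The SW480-45 mean of 376 ± 180.5 (SD, n = 3) was 52.5% of the control mean of 717 ± 78.0. The log2 fold change was -1.07 ± 0.37 (SE), with a 95% confidence interval from -1.92 to -0.21. Its unadjusted p was 0.0213 and its adjusted p 0.226 by limma, and the adjusted p ranged from 0.0688 by DESeq2 to 0.35 over the other settings. A fold change this low or lower was seen in 402 features, 1.85% of those tested. Without SW480-45 replicate 3 the log2 fold change of KLF4 moved to -0.59, and the adjusted p was 0.168.

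The spread of KLF4 within SW480-45 was wide for its level. The SD of its log2 values was 0.84 in SW480-45 and 0.16 in SW480-NC. Among 2249 features with a mean within 1.5-fold of KLF4, the median SD in SW480-45 was 0.14, and 97.6% of them had a smaller SD than KLF4. The other factors did not stand out in this way in SW480-45, where 4.04% (KLF5) to 67.5% (CDX2) of features of like level had a smaller SD. Among the controls the shares ran from 24.3% (KLF5) to 88.3% (SOX9).

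KLF5 (ENSG00000102554), the most abundant of the factors, spans chr13:73054976-73077542 on the plus strand. It was at 10890.1, 11173 and 11195 normalized counts in SW480-45 and at 12596, 12388 and 11793 in SW480-NC. The libraries of each line lay close together and the lines did not overlap. Means were 11086 ± 170.1 and 12259 ± 417 (SD, n = 3), a level of 90.4% of the control. The log2 fold change was -0.14 ± 0.06 (SE, 95% confidence interval -0.27 to -0.02), with an unadjusted p of 0.0309 and an adjusted p of 0.257 by limma. The whole interval fell short of a 2-fold change.

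SOX9 (ENSG00000125398) spans chr17:72121020-72126420 on the plus strand. Its normalized counts were 3009, 2899 and 2805 in SW480-45 and 3883, 3416 and 2827 in SW480-NC. Control replicate 3 lay between the SW480-45 libraries, so the lines overlapped. Means were 2904 ± 102 and 3375 ± 529 (SD, n = 3), with a log2 fold change of -0.21 (95% confidence interval -0.48 to 0.07) and an adjusted p of 0.428 by limma. It was -0.33 without control replicate 3 and -0.10 without control replicate 1. With 3 libraries per line an exact two-sided permutation test cannot go below p = 0.1, the value it gave for KLF4 and KLF5, and it gave 0.2 for HNF4A, 0.3 for SOX9 and 0.6 for CDX2.

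**Figure D2:**
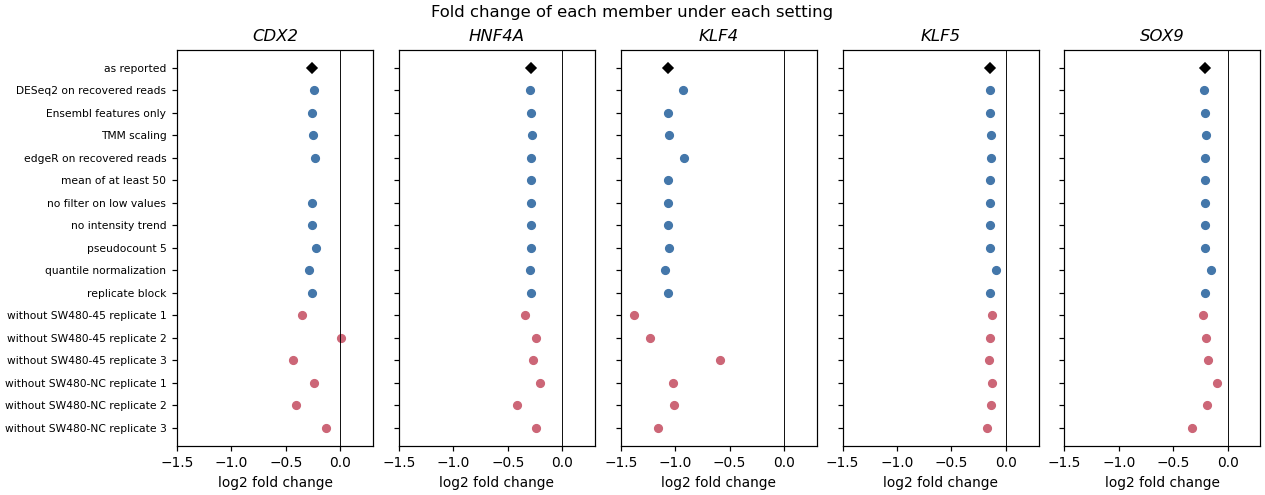
Log2 fold change of each factor (x axis, SW480-45 minus SW480-NC) as reported (black diamond), under other settings (blue) and with 1 library left out (red). All points lie below 0 except that of CDX2 without SW480-45 replicate 2, and KLF4 moved most, to -0.59, without SW480-45 replicate 3. CDX2 has no point at a mean of at least 50 normalized counts, since its own mean is lower.

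To compare levels between genes, normalized counts were divided by the annotated exon length in kb. This length counts all annotated exons of a gene, 7311 bases for HNF4A and 3659 for KLF4, and the order of genes depends on it. Before the division the mean over the 6 libraries was 790 normalized counts for HNF4A and 546.5 for KLF4. KLF5 was highest at 2797 to 3236 per kb over the 6 libraries, followed by SOX9 at 713 to 987. The SOX9 and KLF5 ranges did not overlap, and the ratio of their means was 3.76. KLF4 at 47.9 to 209 and HNF4A at 91.8 to 133 per kb overlapped, with KLF4 higher in 5 of the 6 libraries and HNF4A in SW480-45 replicate 3. CDX2 was lowest at 4.60 to 9.78 per kb, 14.2 times lower in its mean than HNF4A. Among 25 transcription factors of gut epithelium whose levels were compared, these 5 included, KLF5 ranked 1, SOX9 4, KLF4 15, HNF4A 17 and CDX2 25 by mean level per kb.

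**Figure D3:**
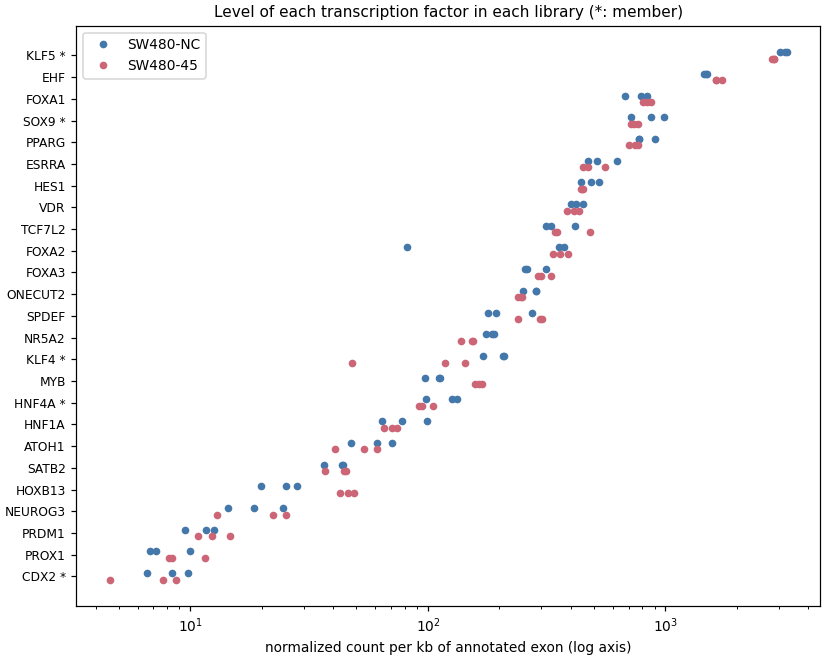
Normalized counts per kb of annotated exon (x axis, log scale) of 25 gut transcription factors in each SW480-NC (blue) and SW480-45 (red) library, with the 5 members starred. KLF5 is at the top and CDX2 at the bottom, and single libraries stand away for KLF4 (SW480-45 replicate 3) and FOXA2 (SW480-NC replicate 1). Factors with a mean under 10 normalized counts are not drawn.

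The partner factors are a list of 32 genes that act beside these factors in gut epithelium. Of them 24 had a row and 21 could be tested. At an adjusted p under 0.05, 1 was higher in SW480-45 and 0 lower, with a median log2 fold change of 0.05. By limma 0.332% of all features tested were higher at that threshold. MYB, a factor of dividing progenitor cells, was at 928, 906 and 869.6 normalized counts in SW480-45 and 611, 533 and 619 in SW480-NC, and its libraries did not overlap. Its log2 fold change was 0.62 ± 0.10 (SE, adjusted p = 0.0426 by limma). MYB missed the threshold in each of the 6 fits with 1 library left out, with adjusted p from 0.0651 to 0.183, and under 3 of the other 10 settings. HOXB13, a homeobox factor of the distal colon, was at 169, 148 and 159 in SW480-45 and 97.3, 68.6 and 88.0 in SW480-NC. Its log2 fold change of 0.91 had an adjusted p of 0.0753 by limma, and it passed by DESeq2. NR5A2, a nuclear receptor of crypt cells, was at 80.6% of the control (adjusted p = 0.153 by limma), and EHF, an ETS factor of epithelia, at 113% (adjusted p = 0.215 by limma). FOXA1, an abundant forkhead factor of gut endoderm, was at 109% of the control and did not pass the test. Of the listed partners 8, among them GATA4, GATA5, HNF4G and ELF3, had no row and were not analysed here.

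**Figure D4:**
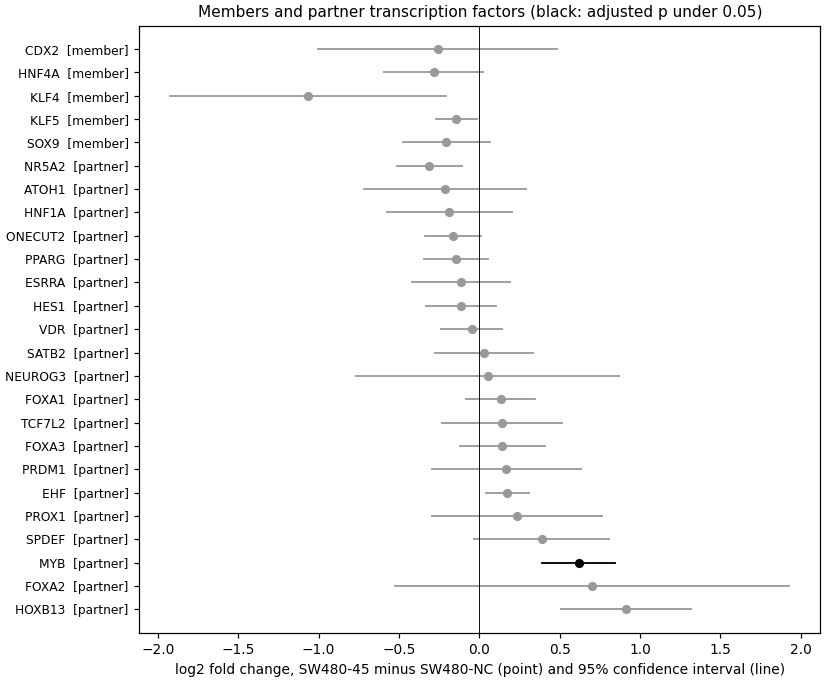
Log2 fold change (x axis, SW480-45 minus SW480-NC) with its 95% confidence interval for the 5 members and their partner factors. MYB, in black, is the only one shown with an adjusted p under 0.05 by limma, and KLF4 and FOXA2 have wide intervals.

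Relatives of the factors were followed by family. Of 15 other Krüppel-like factors 10 could be tested and 0 passed, with a median log2 fold change of 0.13. At an unadjusted p under 0.05, 1 was higher (KLF15) and 2 were lower (KLF3 and KLF10) by limma. The shares of all features tested were 8.1% higher and 8.15% lower. KLF10, induced early by TGF-beta, was at 3907, 4091 and 3703 normalized counts in SW480-45 and 5067, 4715 and 4770.4 in SW480-NC, with a log2 fold change of -0.32 (adjusted p = 0.102 by limma and 0.0147 by DESeq2). KLF15 was at 26.2 to 35.8 in SW480-45 and 9.66 to 20.9 in SW480-NC. KLF6, a factor of injury responses, was at 3156, 3032 and 3261 in SW480-45 and 1796, 1486 and 3316 in SW480-NC. Control replicate 3 stood with the SW480-45 libraries for KLF6, and without it the log2 fold change rose from 0.61 to 0.95, with an adjusted p of 0.0334 in place of 0.311 by limma. That was the only 1 of the 6 fits with 1 library left out in which KLF6 passed, and the adjusted p reached 0.556 in these fits. KLF6 passed in 0 of the 10 other settings. Of 18 other SOX genes 5 could be tested and 0 passed, and SOX2, a gastric factor, had counts in 1 library only. GATA2, at 18.4 to 50.6 normalized counts, was the single testable relative of the GATA, CDX and HNF4 families and had overlapping groups.

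Genes that CDX2 and HNF4A are known to activate in enterocytes and goblet cells were followed as a list of 38. Of these 30 had a row, and 13 of the 30 had a mean under 10 normalized counts and were not tested. These were CDH17, GUCY2C, GPA33, SI, LCT, FABP1, FABP2, APOA1, MTTP, SLC26A3, CA1, MUC2 and MYO7B, among them the brush border disaccharidases and lipid carriers of absorptive cells. Of the 17 tested, 1 was lower and 0 higher, with a median log2 fold change of -0.01. The share of all features tested that were lower at an adjusted p under 0.05 by limma was 0.47%. KRT20, a keratin of mature surface epithelium, fell from 7349, 7919 and 8587 normalized counts in SW480-NC to 4452, 4555 and 4614 in SW480-45. Its log2 fold change was -0.81 ± 0.07 (SE, adjusted p = 0.00719 by limma), and it passed in all 6 fits with 1 library left out and under 8 of the 10 other settings, but not with the replicate block (0.061) or with no intensity trend (0.0859). HEPH, a ferroxidase of iron export, was at 65.6% of the control with an adjusted p of 0.0626 by limma. TFF3, a goblet cell peptide, was at 88.6, 93.0 and 46.2 in SW480-45 and 40.8, 42.5 and 35.0 in SW480-NC, and its log2 fold change of 0.87 did not pass (adjusted p = 0.222 by limma). VIL1, named above, had an adjusted p of 0.225 by limma. The abundant CLDN2, LGALS4, CFTR and DPP4 lay between 93.0% and 99.7% of the control and none passed.

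SOX9 and KLF5 belong to crypt base cells, and 16 genes of that compartment were listed. Of these 9 could be tested, and 1 rose and 1 fell at an adjusted p under 0.05 by limma. In either direction, 0.802% of all features tested did so. EPHB2, an ephrin receptor graded along the crypt, rose from 290, 242 and 259.8 normalized counts in SW480-NC to 511, 577 and 492 in SW480-45, a log2 fold change of 0.99 ± 0.12 (SE, adjusted p = 0.0191 by limma). LGR5, the R-spondin receptor of intestinal stem cells, fell from 1859.8, 1798 and 1663 to 1226, 1173 and 1279, a log2 fold change of -0.53 ± 0.08 (SE, adjusted p = 0.0426 by limma). The lines did not overlap for either gene. Both lost the call in each of the 6 fits with 1 library left out, with adjusted p from 0.0519 to 0.0814 for EPHB2 and from 0.0583 to 0.17 for LGR5. EPHB3 was at 123% of the control (adjusted p = 0.252 by limma) and TNFRSF21 at 81.0% (adjusted p = 0.057).

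Genes of the cell cycle and growth that KLF4 or KLF5 are reported to control gave 11 tested genes. Of these 1 was lower and 0 higher, with a median log2 fold change of -0.17. Among all features tested, 0.47% were lower at an adjusted p under 0.05 by limma. The one that passed was ODC1, ornithine decarboxylase of polyamine synthesis and a gene that KLF4 represses. ODC1 fell from 40244, 42380.4 and 44910.2 normalized counts in SW480-NC to 29222, 30437 and 30577 in SW480-45 (log2 fold change -0.50 ± 0.06 SE, adjusted p = 0.0149 by limma). It held the call in 1 of the 6 fits with 1 library left out. CDKN1A, the cell cycle inhibitor p21 that KLF4 activates, was at 715, 889.6 and 833 in SW480-45 and 1198, 1075 and 1267 in SW480-NC, with a log2 fold change of -0.54 and an adjusted p of 0.0957 by limma. At an unadjusted p under 0.05, CCNE1, CDK1 and PCNA were also lower and no gene of the list was higher by limma. Among all features tested, 8.15% were lower and 8.1% higher at that unadjusted threshold. The list was chosen with earlier results of these data known, so its counts cannot be read as a test against those shares. CCND1 and CCNB1, cyclins of G1 and mitosis, were at 97.8% and 98.5%.

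Loss of CDX2 is known to let gastric genes appear in intestinal epithelium, so 13 gastric genes were followed. Of these 5 could be tested, 3 of them were lower in SW480-45 and 0 higher, and the median log2 fold change was -0.61. Over all features tested, 0.47% were lower at an adjusted p under 0.05 by limma. The gastric list, like the other lists, was chosen with earlier results of these data known. MUC5AC, the secreted mucin of gastric surface cells, was at 109.7, 139 and 92.3 normalized counts in SW480-45 and 372, 377 and 379.6 in SW480-NC. Its log2 fold change was -1.74 ± 0.16 (SE, adjusted p = 0.00838 by limma), and without control replicate 1 the adjusted p was 0.058. VSIG1, a junction protein of gastric epithelium, was at 65.7% of the control with non-overlapping libraries (log2 fold change -0.61 ± 0.06 SE, adjusted p = 0.0129 by limma). ANXA10, an annexin of gastric mucosa, was at 77.7% (log2 fold change -0.36 ± 0.06 SE, adjusted p = 0.0497 by limma). VSIG1 held in 3 and ANXA10 in 0 of the 6 fits with 1 library left out. GAST, TFF2, PGC, MUC6 and SOX2 had a mean under 10 and were not tested. Of 4 squamous markers tested, 1 was lower at an adjusted p under 0.05 by limma, against 0.47% of all features tested. The other 3 had log2 fold changes above 0, and the list median was 0.16. The one that passed was the keratin KRT13, at 40.1, 57.8 and 43.3 in SW480-45 and 128, 134 and 142 in SW480-NC (log2 fold change -1.51 ± 0.19 SE, adjusted p = 0.0243 by limma). TP63, the defining factor of squamous cells, was at 0 in 5 of the 6 libraries. KRT13 held in 1 of the 6 fits with 1 library left out. None of the 3 testable hepatic, 2 fibroblast and 3 immune or endothelial markers passed by limma.

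**Figure D5:**
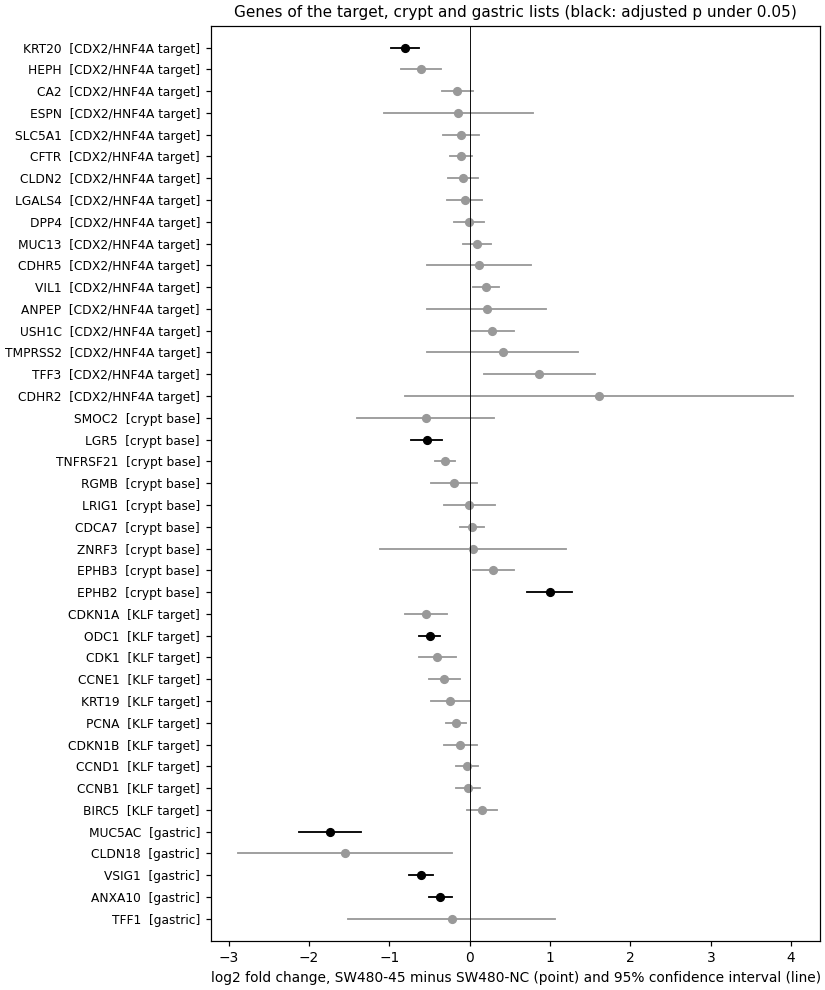
Log2 fold change (x axis, SW480-45 minus SW480-NC) with its 95% confidence interval for genes known as targets of CDX2 or HNF4A, genes of the crypt base, genes reported as targets of Krüppel-like factors, and gastric genes. Black marks an adjusted p under 0.05 by limma, as for KRT20, LGR5, EPHB2, ODC1, MUC5AC, VSIG1 and ANXA10.

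The genomic surroundings of the 7 factors were also read. GENCODE 29 annotates 47 genes that overlap a factor or lie within 100 kb of one, and 26 of them had a row. In all 13 could be tested, and 0 passed by limma, edgeR or DESeq2. An unadjusted p under 0.05 was reached by 2 with each tool, against 16.2% of all features tested by limma. PDX1, a pancreatic and duodenal homeobox factor beside CDX2, was at 86.5, 68.6 and 70.7 normalized counts in SW480-45 and 49.2, 45.4 and 45.6 in SW480-NC (log2 fold change 0.67, adjusted p = 0.151 by limma). GATA6-AS1 starts head to head with GATA6 and overlaps it by 436 bases. It was at 259, 264 and 284 in SW480-45 and 291, 284 and 281 in SW480-NC, and the lines overlapped. SOX9-AS1, whose annotated span covers all of SOX9, was at 19.0 to 29.5 in SW480-45 and 9.54 to 26.2 in SW480-NC. Whether strand was used in counting is not given in the sources used here, so reads of such antisense pairs cannot be assigned with certainty. HNF4A-AS1, inside HNF4A, was at or near 0.

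As a description of pattern, the log2 values of each factor were correlated with those of 9703 other genes (9704 for CDX2) over the 6 libraries. The genes with the highest Pearson r were SH3BP2 and ZNF569 for CDX2 (both 0.975), LTO1 and CTBP1-DT for HNF4A (0.989 and 0.987), and RELT and ZMYND19 for KLF4 (0.99 and 0.988). They were PTPN4 and CLINT1 for KLF5 (0.998 and 0.996) and SHH and CRLF3 for SOX9 (0.994 and 0.99). The points share 6 libraries and their scaling, and r over 0.95 was reached by 11 genes for CDX2, 11 for HNF4A, 32 for KLF4, 186 for KLF5 and 34 for SOX9. How many genes would reach such an r by chance over 6 libraries was not computed, so shared regulation cannot be read from these values. The pattern of CDX2 also rests on 21 to 38 reads per library. CTBP1-DT varied most among these, from 58.4 to 122 normalized counts in SW480-45 and from 77.3 to 506 in SW480-NC, low in control replicate 2 like HNF4A.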

How the data were processed

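RNA from 3 libraries each of SW480-45 and SW480-NC was sequenced on an Illumina HiSeq instrument. The authors deposited 1 signal value for each feature and library, namely read counts already scaled by library size factors. The submitters' processing notes name bcl2fastq, HISAT2, DESeq2 and GRCh38, the paper's methods name Cuffdiff, and the counting tool is not given in the sources used here. Every value was a whole multiple of 1 step per library (100% within 0.01 reads). The table has 25927 Ensembl and 33265 assembler features, 25595 with a symbol. Reads of a gene merged into an assembler locus are missed.

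Differences were tested in R 4.3.3 by limma 3.58.1 with an intensity trend on log2(normalized count + 1), for features with a mean of at least 10, with Benjamini-Hochberg adjustment over 21703 features. Alternatives were edgeR 4.0.16 and DESeq2 1.42.0 on the recovered reads, other scalings, filters and pseudocounts, a replicate block, and each library left out. The steps were tested on simulated data. Replicates differed by 21.3 to 26.9 times sampling noise (mean chi-square per feature), so none is a duplicate. Spans and exon lengths are from GENCODE 29 on GRCh38.

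The factors and gene lists were chosen with earlier results of these data known. Named genes were those that passed, up to 4 of highest mean and 4 of largest change per list, the 2 genes most like each factor, and neighbours within 100 kb. Some tested genes of the lists are counted but not reported by name here, nor drawn. Figures were drawn with matplotlib 3.10.9.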

Additional observations from a re-analysis of the deposited data

How the results depend on the processing

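The 5 factors stayed outside the threshold under each setting tried, and HNF4A, KLF4, KLF5 and SOX9 kept their direction, while CDX2 turned to 0.006 without SW480-45 replicate 2 and has no value at a mean of at least 50. With 1 library left out, log2 fold changes ran from -0.435 to 0.006 for CDX2, -0.414 to -0.2 for HNF4A, -1.375 to -0.587 for KLF4, -0.172 to -0.125 for KLF5, -0.327 to -0.098 for SOX9 and -0.93 to -0.76 for HPSE. HPSE, at -0.833, passed with no filter (adjusted p 0.0451), a mean of at least 50 (0.046), Ensembl features only (0.0462) and DESeq2 (0.00207). Over all features tested, 72 were higher and 102 lower, against 3 and 8 with no intensity trend, 3 and 9 with the replicate block, 393 and 432 by DESeq2, and 13 to 45 and 16 to 48 with 1 library left out. Over all features tested, deviations of same-numbered libraries had correlations of 0.00246, -0.0202 and 0.00741. Those of unlike number ran from -0.0263 to 0.0244. Whether same-numbered libraries share an effect on some genes was not tested. With the replicate block and with no intensity trend, each list had 0 genes past the threshold. Elsewhere the number that passed became 0 (quantile normalization) or 2 (DESeq2) for partner factors, 2 for CDX2 and HNF4A targets (no filter, a mean of at least 50, Ensembl features only, DESeq2), 1 (quantile normalization) or 3 (a mean of at least 50, Ensembl features only, DESeq2) for crypt base genes, 2 for gastric genes (no filter, TMM scaling, quantile normalization, edgeR), 3 for Krüppel-like factor targets, 1 for the Krüppel-like family and 1 (TTR) for hepatic markers (DESeq2). With 1 library left out these numbers ran from 0 to 0 for partners, the crypt base and hepatic markers, 1 to 1 for CDX2 and HNF4A targets, 0 to 1 for Krüppel-like factor targets, the Krüppel-like family and squamous markers, and 0 to 2 for gastric genes. List medians moved to -0.061 (a mean of at least 50) and 0.055 (quantile normalization) for CDX2 and HNF4A targets, -0.14 for Krüppel-like factor targets (quantile normalization) and 0.079 for the Krüppel-like family (a mean of at least 50). With 1 library left out they ran from -0.026 to 0.104 (partners), -0.077 to 0.05 (CDX2 and HNF4A targets), -0.207 to 0.038 (crypt base), -0.19 to -0.142 (Krüppel-like factor targets), 0.11 to 0.145 (Krüppel-like family), 0.021 to 0.3 (SOX family), -0.153 to -0.077 (epithelial markers) and -0.754 to -0.581 (gastric genes). The causes were not tested. CDX2 rests on 21 to 38 reads per library, so only large changes of it could be detected.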

Other observations

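Several gut genes had single libraries that stood apart from their group. FOXA2, a forkhead factor of foregut and gut endoderm, was at 213 normalized counts in SW480-NC replicate 1 and at 873 to 1011 in the other 5 libraries. ZNRF3, a ubiquitin ligase that restrains Wnt signaling, was at 4281 in SW480-45 replicate 1 and 4246 in SW480-NC replicate 1, against 1417 to 1851 in the other 4. These genes were singled out after their values were seen. Among 14365 features with a mean of at least 50, both libraries of the same number stood at least 2-fold above the other 4 in 9 features for replicate 1, 5 for replicate 2 and 3 for replicate 3. They stood at least 2-fold below in 10, 17 and 15 features. Pairs of libraries with unlike numbers were not counted, so these counts have no background to be read against.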
